A study of Mus musculus with 20 samples.

Results

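The genes described here are the ribosomal protein pseudogenes, taken as the genes whose GENCODE vM21 symbol is that of a ribosomal protein gene followed by -ps, and to which at least 1 read was assigned in any library. Of 288 such symbols in the files, 232 met the rule, out of 34083 genes in all, and 41 of the others were at exactly 0 reads in each of the 20 libraries. The members were chosen by their reads, so that which pseudogenes carried reads is a description and no test is attached to it. Rps12-ps12, Rps12-ps13 and Rps12-ps14 lay just outside the threshold, at a highest value of 0.532 reads, and Rpl36-ps4, Rpl9-ps9 and Rps18-ps2 lay just inside it, at 1.000. RNA was taken from N2A cells, a mouse neuroblastoma line, 1 h after whole culture wells had been scanned with a laser or left unexposed. Batch 1 held I0-E0, I0-E2 and I0-E4, which received a single laser at the lowest average intensity and a fluency that grew with the dwelling time of the beam, I2-E2, which received the fluency of I0-E2 at a higher intensity, and the unexposed negative control (NC), with 3 libraries each. Batch 2 held 3 libraries of I3-E3-SRS, scanned with both lasers of the SRS microscope near the level at which cells burn, and 2 libraries of NC. The same line was used throughout. The labels do not say whether replicates came from separate cultures, and p-values here cover the spread among libraries, which may be technical.

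A processed pseudogene arises when the spliced mRNA of a parent gene is copied back into the genome, without the introns and without the promoter of the parent. Ribosomal protein genes, which make the proteins of the small (Rps) and large (Rpl) subunit of the ribosome and are transcribed strongly in dividing cells, have given rise to many such copies in mammals, and most copies are thought to be silent. A read from a stretch that copy and parent share letter for letter could have come from either, and a quantifier such as Salmon then divides it between them by an estimate.

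The closeness of copy and parent is shown here by 4 pairs, because many of the results below turn on reads divided within such pairs. Each line gives 90 bases, 5′ to 3′, of the pseudogene transcript and of the coding part of the spliced parent transcript, both from GENCODE vM21 with coordinates on GRCm38, with the bases that differ within the pair in capitals. The Rps13-ps2 stretch lies at chr7:88530809-88530898 on the minus strand and has no difference from Rps13, a protein of the small subunit, and the whole transcript of Rps13-ps2 lies within an Rps13 transcript.
Rps13-ps2: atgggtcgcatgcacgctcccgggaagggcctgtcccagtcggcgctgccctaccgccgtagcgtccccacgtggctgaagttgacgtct
Rps13: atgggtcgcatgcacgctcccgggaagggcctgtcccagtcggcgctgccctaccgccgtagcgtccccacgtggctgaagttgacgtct
The Rpl19-ps11 stretch lies at chr8:19493081-19493170 on the plus strand, and its capital is the only difference from Rpl19, a protein of the large subunit, over 591 coding bases.
Rpl19-ps11: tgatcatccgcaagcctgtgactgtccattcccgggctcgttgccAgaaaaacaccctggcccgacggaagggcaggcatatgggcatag
Rpl19: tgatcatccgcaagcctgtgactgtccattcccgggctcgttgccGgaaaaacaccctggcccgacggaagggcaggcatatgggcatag
The Rpl14-ps1 stretch lies at chr7:45325485-45325574 on the plus strand, and Rpl14 encodes another protein of the large subunit.
Rpl14-ps1: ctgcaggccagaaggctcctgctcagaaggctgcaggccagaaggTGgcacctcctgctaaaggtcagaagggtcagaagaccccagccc
Rpl14: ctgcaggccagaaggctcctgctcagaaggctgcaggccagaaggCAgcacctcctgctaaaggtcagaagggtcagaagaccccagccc
The Rpsa-ps10 stretch lies at chr3:150073285-150073374 on the minus strand, and Rpsa encodes a protein of the small subunit that is also known as the laminin receptor.
Rpsa-ps10: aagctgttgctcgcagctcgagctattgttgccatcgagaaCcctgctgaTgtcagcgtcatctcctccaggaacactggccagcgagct
Rpsa: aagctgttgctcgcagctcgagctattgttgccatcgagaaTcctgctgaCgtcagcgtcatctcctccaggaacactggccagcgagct
Over the whole coding part, Rpl14-ps1 had 4 substitutions and 3 gap bases and Rpsa-ps10 had 6 and 3, and fragments that cover none of these could not be told from the parent.

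Reads were concentrated on few of the pseudogenes. A mean of at least 10 reads per library was reached by 38 of the 232 and a mean of at least 100 by 21, and the first 15 held 95.1% of the reads of all. In each of the 20 libraries 23 pseudogenes had a read, whereas 41 had a read in 1 library only. The 232 were copies of 57 parent genes and lay on 20 chromosomes, with 18 copies of Rpl31, 14 of Rpl21 and 11 each of Rps12 and Rpl7a. Of the 232, 220 are annotated as processed pseudogenes and 6 as transcribed processed pseudogenes, and 6, among them Rpl10-ps3 and Rps12-ps3, are annotated as protein coding. The annotation places 152 of them between genes, 50 and 22 within an intron on the opposite and on the same strand of a gene, and 8 over an exon.

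Among copies of large subunit genes, Rpl3-ps1 carried the most reads, and Rpl3 encodes a protein that reaches towards the peptidyl transferase centre. Rpl3-ps1 (chrX:13202571-13203780, between genes) had 880, 905 and 927 CPM (reads scaled to the gene reads of the library) in I3-E3-SRS, 755 to 864 CPM with a median of 828 CPM in the 15 libraries of batch 1, and 956 and 909 CPM in NC replicates 1 and 2 of batch 2. These libraries spanned a narrow range, with all 5 of batch 2 above all 15 of batch 1. Rpl10-ps3 (chr9:50344201-50344968), a copy of Rpl10, whose protein joins the large subunit late in its assembly, had 1005, 965 and 1070 CPM in I3-E3-SRS, 689 to 897 CPM in batch 1, and 347 and 883 CPM in NC replicates 1 and 2 of batch 2. NC replicate 1 of batch 2 was the lowest of the 20 libraries for this copy. Rpl27-ps3, Rpl15-ps3, Rpl28-ps1, Rpl10a-ps1, Rpl31-ps8 and Rpl36a-ps2 averaged 485, 332, 282, 280, 235 and 147 CPM over the 20 libraries. In GENCODE vM21 each of these copies lies whole within a transcript of its parent. Rpl27-ps3 has 411 bases there but 475 in the files, so this may not hold for the transcript quantified.

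Among copies of small subunit genes, Rps12-ps3, Rps23-ps1, Rps2-ps10 and Rps16-ps2 averaged 691, 596, 381 and 217 CPM, and Rps23 encodes a protein of the decoding centre. Rps12-ps3 (chr19:59322290-59322783, in an intron of Pdzd8 on the opposite strand) had 371, 318 and 387 CPM in I3-E3-SRS, 664 to 1030 CPM in batch 1, and 148 and 340 CPM in NC replicates 1 and 2 of batch 2. Batch 1 lay above batch 2 without overlap, and NC replicate 1 was again the lowest library. Rps23-ps1 (chr3:37714740-37715164) had 160, 149 and 175 CPM in I3-E3-SRS, 582 to 861 CPM in batch 1, and 450 and 140 CPM in NC replicates 1 and 2 of batch 2. On the opposite strand it lies over an exon of Gm5148, whose transcripts hold 93.2% of its 31-base words in reverse complement. Gm5148 itself stood at 374 CPM in NC replicate 1 of batch 2, at 210 to 274 CPM in the other 4 libraries of batch 2 and at 0.315 to 2.14 CPM in batch 1, and its part in the difference of Rps23-ps1 between batches was not tested.

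**Figure D1:**
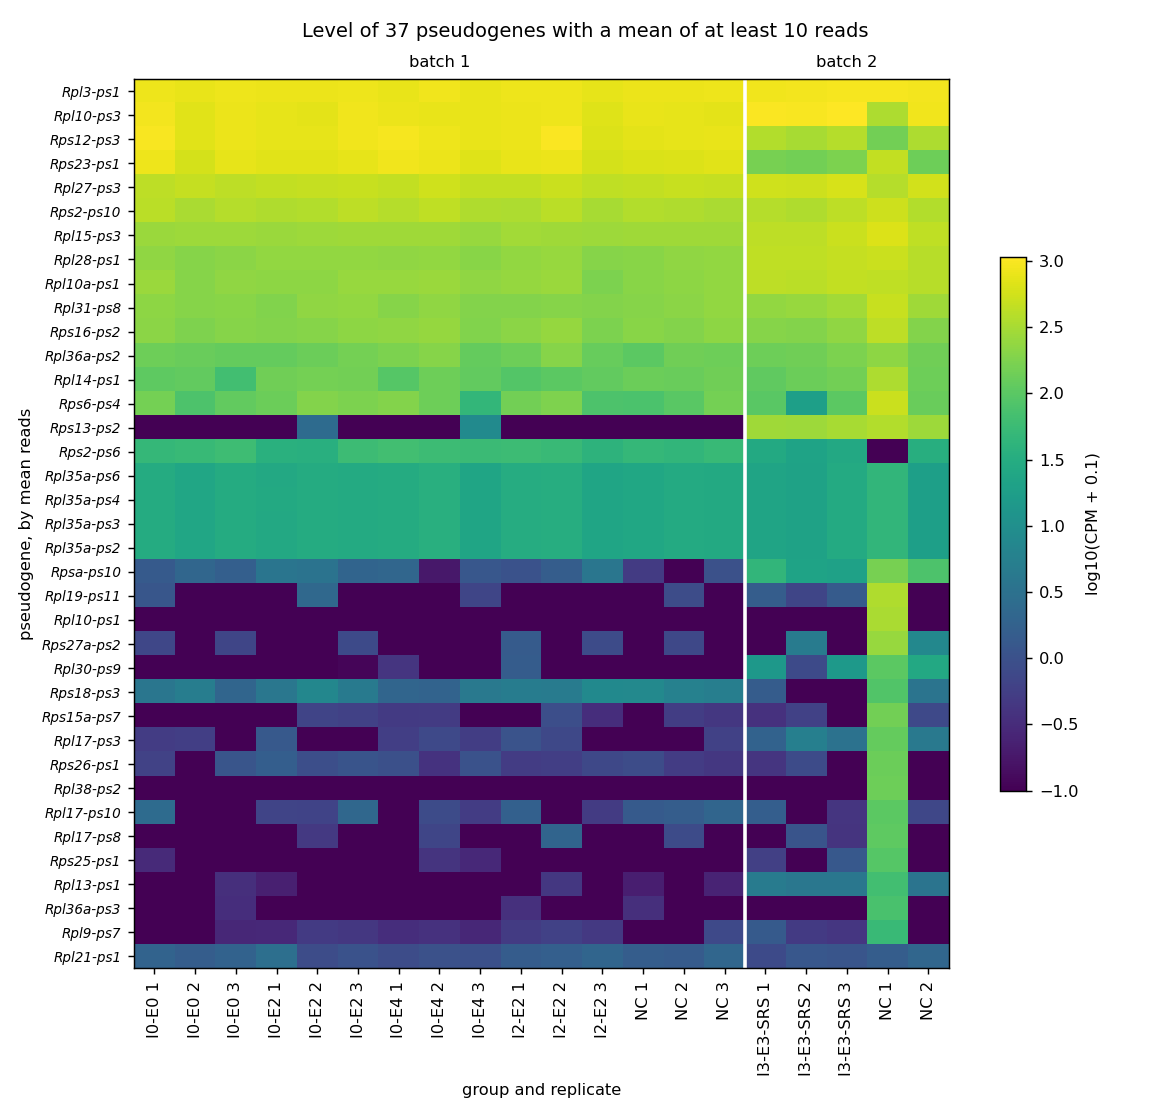
Level of 37 of the 38 ribosomal protein pseudogenes with a mean of at least 10 reads, as log10(CPM + 0.1) by colour, with a row for each pseudogene in order of mean reads and a column for each library. The upper rows are bright in every library, and NC replicate 1 of batch 2 is bright in lower rows that are dark elsewhere, such as Rpl10-ps1 at 326 CPM against 0 CPM in the other 19 libraries.

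The pseudogenes with the most reads were those with the least sequence of their own. A 31-base word of a transcript was called its own when no transcript of another gene in the files held it on either strand. The 27 pseudogenes with no word of their own held 60.6% of the reads of all 232, and the 27 with up to 10% of own words held 36.1%. The 86 with over 10% to 50% held 3.21%, the 91 with over 50% but under 100% held 0.151%, and the 1 with 100% reached 2.00 reads in its highest library. The median share of own words was 1.20% for the 38 with a mean of at least 10 reads and 44.5% for the other 194, and the median identity to the parent transcript was 99.7% against 95.7%. In 13 pseudogenes the whole transcript, as given in GENCODE vM21, lay within a transcript of the parent, and all 13 had a mean of at least 10 reads. Rpl27-ps3, among the 13, has another length in the files. Rpl35a-ps2, Rpl35a-ps3, Rpl35a-ps4 and Rpl35a-ps6 have transcripts identical to one another and to Gm10243, and in NC replicate 1 of batch 2 each had 239 reads. Their equal values, 44.0 CPM each in that library, are 1 quantity divided by the number of copies rather than 4 measurements. In all counts and medians of pseudogenes given here they still enter as 4. Only Rpl13-ps1 (chr11:85111126-85111793, in an intron of Usp32 on the same strand) passed 100 reads in a library with over 50% of own words, at 54.1%.

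**Figure D2:**
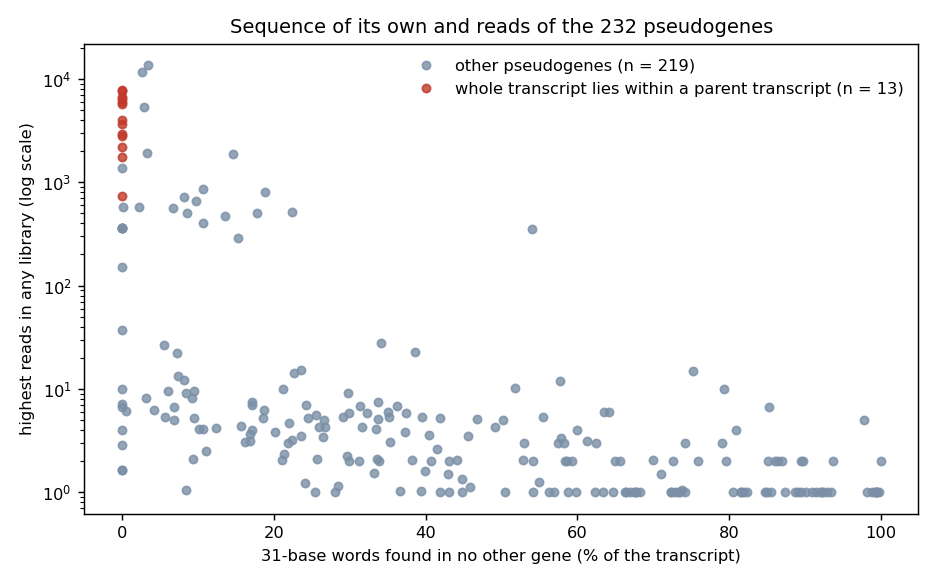
Highest reads of each of the 232 pseudogenes in any library (log scale) against the share of its 31-base words that no other gene holds. The 13 pseudogenes that lie whole within a parent transcript (red) are at 0% and between 737 and 7784 reads, and Rpl13-ps1, at 54.1% and 350 reads, stands alone on the right.

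Per unit of length, several copies were listed above their parent. Rps12-ps3 averaged 3508 TPM against 276 TPM for Rps12, Rpl27-ps3 2622 TPM against 391 TPM for Rpl27, and Rps23-ps1 3860 TPM against 1059 TPM for Rps23, which are the 3 highest ratios, 12.7, 6.70 and 3.64. Rpl3-ps1, Rpl28-ps1 and Rpl10-ps3 followed at 3.60, 2.61 and 2.40 times the TPM of their parent. As a share of the reads of parent and named copies together, Rps12-ps3 and the other copies of Rps12 held 84.6% to 87.8% in I3-E3-SRS, 90.0% to 92.7% in batch 1, and 74.8% and 85.6% in NC replicates 1 and 2 of batch 2. The transcript of Rps12-ps3 holds no word that Rps12 lacks, so that these levels are estimates of how shared reads were divided. Of the other named copies, Rpl14-ps1, Rpl5-ps2 and Rpsa-ps10 stood at 0.22, 0.019 and 0.013 times the TPM of Rpl14, Rpl5 and Rpsa.

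NC replicate 1 of batch 2 stood apart from the other 19 libraries. Ribosomal protein pseudogenes held 0.931% of its gene reads, against 0.496% to 0.653% in the others, while the 86 cytosolic ribosomal protein genes held 3.77%, against 4.18% to 5.36%. Pseudogenes and ribosomal protein genes together held 4.703% of its reads. This is below the other 4 libraries of batch 2, at 4.765% to 5.424%, and near the low end of batch 1, at 4.696% to 5.999%. For every 100 reads on ribosomal protein genes it had 24.7 on pseudogenes, against 13.6, 13.6, 13.7 and 14.1 in the other 4 libraries of batch 2 and 11.8 to 12.7 in batch 1. At least 100 reads were assigned to 36 pseudogenes in it, against 22 or 23 in the other libraries of batch 2 and 19 in each library of batch 1. The first 15 pseudogenes of the library held 75.9% of its pseudogene reads, against 95.0% to 97.6% in the others. It was also the library with the fewest reads, 5473588 of a range up to 12698770, and the only one in which the deposited length less the effective length of long transcripts was a whole number, 249.00 bases, against 192.24 to 253.74 bases in the others. The next shallowest were I0-E4 replicate 2 with 5623685 reads and I2-E2 replicate 2 with 5808532 reads. Each had 19 pseudogenes with at least 100 reads, and 11.9 pseudogene reads for every 100 on ribosomal protein genes. The part of depth and of the length setting in the result was not tested. Of 11 markers of N2A cells 9 had reads in all libraries, whereas Nefl and Nefm, neurofilament genes, were at most 0.377 CPM. Of 14 markers of other cell types Pecam1, an endothelial gene, stood at 3.57 to 17.4 CPM and the others had medians of at most 0.569 CPM.

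**Figure D3:**
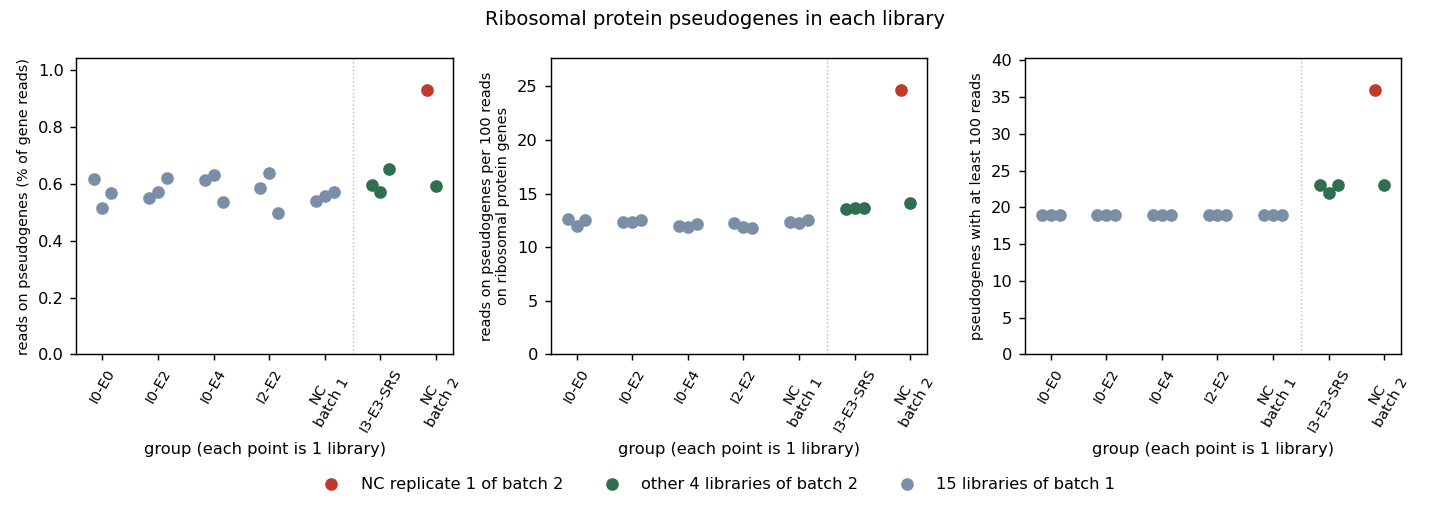
Share of gene reads on the ribosomal protein pseudogenes (left), reads on pseudogenes per 100 reads on ribosomal protein genes (middle) and the number of pseudogenes with at least 100 reads (right), with 1 point for each of the 20 libraries by group. NC replicate 1 of batch 2 (red) lies above all other libraries in each panel, at 0.931%, 24.7 reads and 36 pseudogenes.

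The 5 pseudogenes ranked highest in NC replicate 1 of batch 2 had a median of 0 CPM in the other 19 libraries, so they were ranked by CPM. Rps13-ps2 was high in all of batch 2, and Rpl19-ps11, Rpl10-ps1 and Rpl38-ps2 were at or near 0 elsewhere. Rps27a-ps2 reached 4.59 CPM in I3-E3-SRS replicate 2 and 7.39 CPM in NC replicate 2 of batch 2. Rpl19-ps11 had 351 CPM in NC replicate 1 of batch 2, against 0 to 2.19 CPM in the other 19 libraries, and Rpl19 itself stood at 670 CPM, against 887 to 1265 CPM in the others. Rpl10-ps1 had 326 CPM and Rpl38-ps2 had 136 CPM in NC replicate 1, where all 19 others were listed at 0, and mouse Rpl38 is known for its role in the translation of Hox mRNAs. Rps27a-ps2, a copy of the gene that encodes a ribosomal protein fused to ubiquitin, had 253 CPM in NC replicate 1, against 0 to 7.39 CPM in the others. In all, 16 pseudogenes had at least 100 reads in NC replicate 1 and a median under 1 CPM in the other 19, a list made from these values. They ran from Rpl34-ps1 at 151 reads to Rps13-ps2 at 1997 reads and held 26.4% of the pseudogene reads of that library. Since 15 of the 19 libraries are of batch 1, that median is close to a value of batch 1. In 11 of the 16 the median of the other 4 libraries of batch 2 was also under 1 CPM, and these 11 held 16.6% of the pseudogene reads. The other 5, Rps13-ps2, Rpl30-ps9, Rpl17-ps3, Rpl13-ps1 and Rps27a-ps2, had reads in more of batch 2, with Rps13-ps2 at 275 to 316 CPM there. The lowest ratios were those of Rps2-ps6, at 0 CPM in NC replicate 1 against 21.9 to 64.2 CPM in the others, and of Rps12-ps3, Rpl10-ps3, Rps23-ps1 and Rpl27-ps3, at 0.19, 0.43, 0.65 and 0.81 times the median of the others. For Rps23-ps1 the direction turned within its own batch, at 450 CPM in NC replicate 1 against 140 to 175 CPM in the other 4 libraries. Low and high copies stood side by side within a family: Rpl10-ps3 was at its lowest in the library in which Rpl10-ps1 had its only reads.

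Of the 26 pseudogenes with a mean of at least 10 reads over the other 19 libraries, NC replicate 1 of batch 2 lay above all 19 in 18 and below all 19 in 4. Among all 11844 genes with that mean, it lay above in 8.46% and below in 13.5%. The 18 count the 4 identical Rpl35a copies singly. They also include Rps6-ps4, a copy of the gene for the protein that S6 kinase phosphorylates. Rps6-ps4 had 512 CPM in NC replicate 1 against 18.6 to 194 CPM in the others, and Rpl14-ps1 had 343 CPM against 64.2 to 156 CPM. The parent stood below the other 19 libraries in 27 of 55 families with a mean of at least 50 CPM and above them in 1, and the pseudogenes' share of the family stood above in 32 and below in 2. Other genes named as pseudogenes by -ps, 1197 in the files, held 0.225% of the reads of NC replicate 1, against 0.0880% to 0.131% in the others.

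The sums of most whole families in NC replicate 1 of batch 2 lay near the median of the other 19 libraries. In how many families the sum lay closer than the pseudogenes was not counted. A sequence family was taken as the parent and every gene, pseudogene or not, with at least 50% of its 31-base words in the parent. Named pseudogenes below that share were left out of the sums. Among them were Rpl36a-ps3 and Rpl13-ps1, with 0% and 34.5% of their words in the parent. These had 74.5 and 64.4 CPM in NC replicate 1 of batch 2. Over 56 families, the CPM of the family in NC replicate 1 of batch 2 was 0.67 to 1.26 times the median of the other 19 libraries, with a median ratio of 1.03 and quartiles of 0.95 and 1.11. In the Rpl17 family the named pseudogenes took 73.9% of the reads of parent and copies in NC replicate 1, against 0.12% to 1.79% in the others, and the whole family was at 1.00 times the median. The Rpl19 pseudogenes took 34.5% against 0.06% to 0.38%, with the family at 1.03 times, and those of Rpl38 took 49.9% against 0% to 0.05%, with the family at 0.96 times. The Rps6 pseudogenes took 67.1% against 2.63% to 25.9%, with the family at 1.02 times the median. The lowest family ratios were 0.67 in Rps23 and 0.69 in Rps12, and both turned within batch 2, with 799 CPM in NC replicate 1 against 268 to 327 CPM in the other 4 libraries for Rps23, and 582 CPM against 453 to 563 CPM for Rps12. Against the median of those 4 libraries, a comparison added after the data were seen, the 56 ratios ran from 0.89 to 2.76 with a median of 1.03 and quartiles of 1.00 and 1.09. The highest were 2.76 in Rps23, 1.96 in Rpl29 and 1.37 in Rps26. In the Rps12 family a gene not counted among the pseudogenes, Rps12l1, had 383 CPM in NC replicate 1, against a median of 73.3 CPM in the other 4 libraries of batch 2 and 0 CPM in batch 1.

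**Figure D4:**
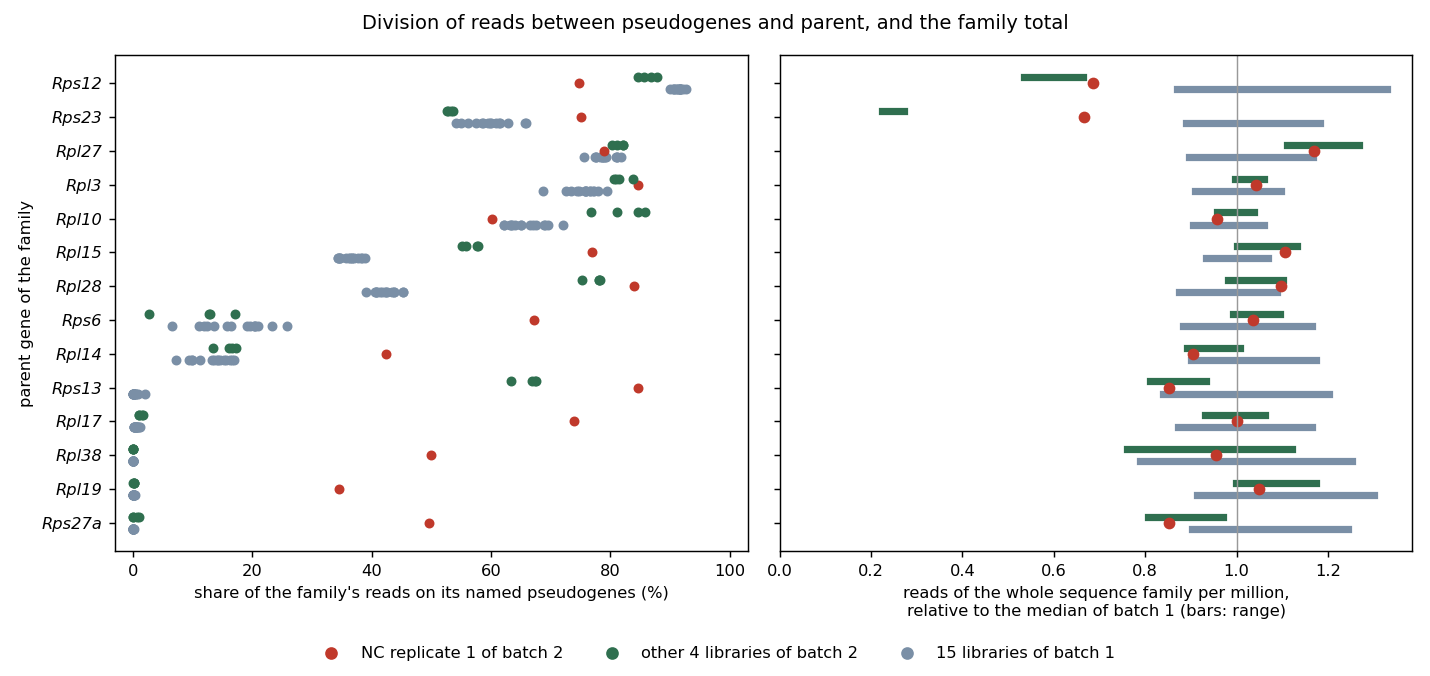
Left, share of the reads of a parent gene and its named pseudogenes that was assigned to the pseudogenes, with 1 point per library, for 14 families. Right, CPM of the whole sequence family relative to the median of batch 1. Bars give the range of batch 1 and of the other 4 libraries of batch 2, and a point gives NC replicate 1 of batch 2. The point lies below the range of batch 1 in Rps23 (799 CPM, against 1066 to 1420 CPM) and Rps12 (582 CPM, against 739 to 1128 CPM). In both it lies above the other 4 libraries of batch 2. It is also below batch 1 in Rps27a (741 CPM, against 784 to 1080 CPM). It is above batch 1 in Rpl15 (853 CPM, against at most 825 CPM), Rpl28 (597 CPM, against at most 593 CPM) and, barely, Rpl27 (693.4 CPM, against at most 693.1 CPM).

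The other 4 libraries of batch 2 also differed from batch 1, in which no library overlapped them for several copies. Rps13-ps2 had 284, 275 and 316 CPM in I3-E3-SRS, 368 and 278 CPM in NC replicates 1 and 2 of batch 2 and 0 to 8.31 CPM in batch 1, where only I0-E2 replicate 2 and I0-E4 replicate 3 held over 1 read. Rps13 was lower where its copy was higher, at 137 to 160 CPM in I3-E3-SRS, 66.5 and 135 CPM in NC replicates 1 and 2 of batch 2, and 427 to 612 CPM in batch 1. Since the copy holds no word that Rps13 lacks, its level is an estimate of how shared reads were divided. The sum of the family stood at 0.84 times the level of batch 1 in the other 4 libraries of batch 2. Of the 26 pseudogenes, 8 were higher in the other 4 libraries of batch 2 than in all 15 of batch 1 and 3, Rps12-ps3, Rps2-ps6 and Rps23-ps1, were lower, against 8.46% and 6.98% of all genes. The medians of 56 whole families in those 4 libraries were 0.24 to 1.17 times batch 1, with a median ratio of 0.98, and the lowest were Rps23 at 0.24, Rpl29 at 0.51, Rps26 at 0.53 and Rps12 at 0.56. The Rps23 sum leaves out Gm5148, which shares most words of Rps23-ps1. Gm5148 had a median of 236 CPM in those 4 libraries and 1.51 CPM in batch 1. The batches hold different exposure groups, so each exposure was set against NC of its own batch.

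In batch 1, no ribosomal protein pseudogene passed the test in any exposure. Of 27 that passed the filter on low counts, edgeR's quasi-likelihood test called 0 at an adjusted p under 0.05 in each of the 4 exposures, given here in the order I0-E0, I0-E2, I0-E4, I2-E2, and it called 0% of the 12296 genes tested in each. Limma-voom called 0 of the pseudogenes and of all genes, and DESeq2 called 0 of the pseudogenes beside 0.00813%, 0%, 0.00813% and 0% of all genes. With any 1 library left out, edgeR called 0 of the pseudogenes beside 0%, 0.00798%, 0.00799% or 0.0160% of all genes. Without the filter it called 1, 3, 4 and 4 of 219 pseudogenes, beside 0.435%, 0.182%, 0.680% and 0.633% of all genes. At an unadjusted p under 0.05 there were 4, 2, 3 and 4 pseudogenes, where all genes gave 3.36%, 3.36%, 7.91% and 7.19%. The groups did not overlap in 4, 3, 6 and 2 of the 27, where all genes gave 9.04%, 11.2%, 12.7% and 12.1%. The median log2 fold change of the 27 was 0.04, 0.08, 0.12 and 0.06, beside 0.03, 0.07, 0.14 and 0.10 for the 84 tested of the 86 ribosomal protein genes, of which 0 passed the test, and 0.0035, 0.00067, 0.0029 and 0.0040 for all genes. These 4 comparisons share the 3 NC libraries. Pseudogenes held 0.514% to 0.616% of the reads in I0-E0, 0.551% to 0.620% in I0-E2, 0.537% to 0.631% in I0-E4, 0.496% to 0.637% in I2-E2 and 0.541% to 0.570% in NC.

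The pseudogenes with the smallest p in batch 1 were mostly at the level of a few reads. Rpsa-ps10 had 1.88, 3.38 and 3.60 CPM, scaled by TMM, in I0-E2, against 0, 0.361 and 0.928 CPM in NC, and edgeR's test gave a log2 fold change of 2.84 ± 0.80 (SE) with an adjusted p of 0.993. In I0-E0 and I2-E2 its log2 fold change was 1.94 ± 0.86 and 2.34 ± 0.83 (SE), with the same NC libraries and adjusted p of 0.9995 and 0.607 from edgeR. The 9 exposed libraries of these 3 groups lay above NC, in which Rpsa-ps10 had 0 to 5.71 reads. In I0-E4, at 0, 1.08 and 2.15 CPM, it overlapped NC. Rpl14-ps1, which has at least 514 reads in each library, had 64.0, 107 and 115 CPM in I0-E0 and 91.5, 107 and 114 CPM in I2-E2, against 129, 132 and 143 CPM in NC. Its log2 fold change was -0.50 ± 0.16 (SE) in I0-E0 and -0.37 ± 0.16 (SE) in I2-E2, with adjusted p of 0.9995 and 0.668 from edgeR. In I0-E2, at 142, 149 and 156 CPM, and in I0-E4, at 93.7, 115 and 141 CPM, it overlapped NC, with log2 fold changes of 0.15 ± 0.16 and -0.21 ± 0.16 (SE), so that its direction was not shared by the 4 exposures. Rps18-ps3 had 1.83, 1.99 and 4.10 CPM in I0-E4, against 5.10, 5.69 and 7.70 CPM in NC, with a log2 fold change of -1.17 ± 0.38 (SE) and an adjusted p of 0.612 from edgeR, and the groups did not overlap. Rpl5-ps2, a copy of the gene for a protein that carries 5S ribosomal RNA, had 1.10, 1.23 and 1.33 CPM in I0-E4, against 0.121, 0.361 and 0.619 CPM in NC, with an adjusted p of 0.612. In I0-E0 and I0-E2 the log2 fold change of Rpl5-ps2 was 1.37 in both, with adjusted p of 0.9995 and 0.993 from edgeR. Rps13-ps4 had 0, 0.307 and 0.964 CPM in I0-E4 and 0, 0.356 and 0.972 CPM in I2-E2, against 0.962, 1.70 and 2.32 CPM in NC, and the groups overlapped. Rps6-ps4 had 133, 171 and 195 CPM in I0-E2, against 77.6, 97.5 and 153 CPM in NC, with a log2 fold change of 0.61 ± 0.38 (SE).

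In I3-E3-SRS the outcome turned on NC replicate 1 of batch 2. With all 5 libraries edgeR called 0 of 36 pseudogenes and 0% of the 12031 genes tested, limma-voom likewise 0 and 0%, and DESeq2 0 pseudogenes beside 0.125% of all genes. With the replicate number as a block edgeR called 4 pseudogenes beside 0.0499% of all genes, and without the filter 19 of 168 beside 0.960%. At an unadjusted p under 0.05 there were 14 of the 36, where all genes gave 4.02%, and the groups did not overlap in 9, where all genes gave 18.6%. The median log2 fold change of the 36 was -0.57, beside 0.11 for the 84 ribosomal protein genes tested and -0.0040 for all genes. Without NC replicate 1 the median of 39 pseudogenes tested was 0.07. In that fit the remaining NC library is taken to vary like the exposed ones. Without NC replicate 2 edgeR called 36 of 46, with 31 lower and 5 higher in I3-E3-SRS and a median of -1.31, where 5.27% of 12737 genes were called. A pseudogene that enters that last test through NC replicate 1 alone had to differ, so that nothing about exposure is read from the 36.

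Rpsa-ps10 had the smallest p in I3-E3-SRS, with 20.2, 21.5 and 43.8 CPM, scaled by TMM, against 161 and 78.8 CPM in NC replicates 1 and 2. Both NC libraries lay above the 3 exposed ones, and the log2 fold change was -2.07 ± 0.39 (SE) with an adjusted p of 0.951 from edgeR. Without NC replicate 1 it was -1.50 ± 0.29 (SE) with an adjusted p of 0.240, and without NC replicate 2 it was -2.53 ± 0.28 (SE) with an adjusted p of 0.00017, both from edgeR. Rps18-ps3 had 0, 0 and 1.37 CPM in I3-E3-SRS, against 88.7 and 3.42 CPM in NC replicates 1 and 2. Rps27a-ps2 had 0, 0 and 4.60 CPM in I3-E3-SRS, against 258 and 7.41 CPM in NC replicates 1 and 2. The groups did not overlap for Rps18-ps3 and Rps27a-ps2, and in CPM NC replicate 2 stood closer to the exposed libraries than to NC replicate 1. With each sequence family summed to 1 value, edgeR called 0 of 56 families and 0% of all features in each of the 5 comparisons. Without NC replicate 2 of batch 2 it called 3 of 56 families, Rpl29, Rps23 and Rps26, where 4.70% of all 12638 features were called, and the median size of the log2 fold change over the 56 families was then 0.06.

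**Figure D5:**
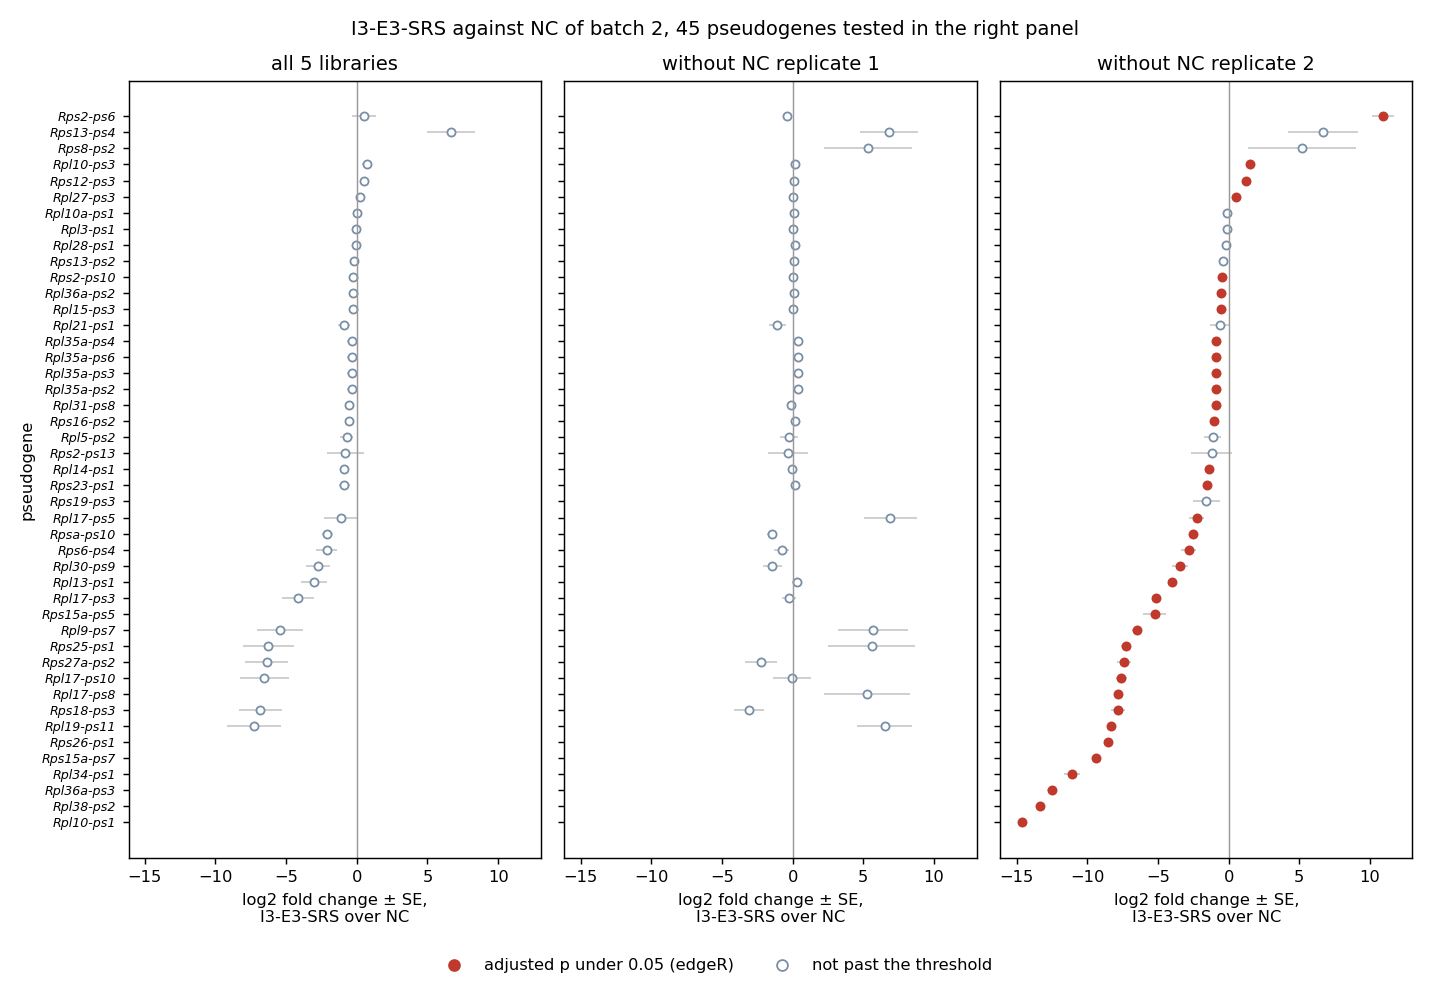
Log2 fold change ± SE of I3-E3-SRS over NC of batch 2 for 45 of the 46 pseudogenes tested without NC replicate 2, in the fit of all 5 libraries (35 shown of 36 tested), without NC replicate 1 (37 shown of 39 tested) and without NC replicate 2, with filled points for an adjusted p under 0.05 from edgeR. The 35 filled points are all in the right panel, where NC replicate 1 is the only control, and the outermost values belong to pseudogenes listed at 0 in one group and are no measure of size.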

How the data were processed

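Bulk polyA RNA-seq of N2A cells was deposited as 1 Salmon table per library, 20 in all. The authors ran Salmon (version, options, transcript release and read layout not given in the sources used here), and the deposited estimated counts are reads assigned to each transcript, not normalized, while the deposited TPM values are scaled by effective length. Groups, replicates and batches were taken from the labels. Identifiers were matched to GENCODE vM21 (GRCm38) at a rate of 98.6%, and unmatched transcripts, 0.664% to 0.748% of the reads, were left out. Estimated counts were summed over 34083 genes. CPM is the count scaled to the sum over genes of the library. A parent is the gene whose symbol precedes -ps.

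For the tests the sums were rounded, filtered with filterByExpr (minimum count 10) and scaled by TMM, and edgeR 4.0.16 (glmQLFit, glmQLFTest, R 4.3.3) was fitted with group alone, on batch 1 (12296 genes) and batch 2 (12031 genes) separately, with Benjamini-Hochberg adjustment over all genes and a threshold of 0.05. Limma 3.58.1 (voom), DESeq2 1.42.0, other filters and scalings, a replicate block and left-out libraries were alternatives. The fit was tested on simulated data. Sequence words of 31 bases on both strands and alignments (edlib) were computed from the GENCODE vM21 transcripts, and 217 of the 232 members have the same length in the files as there. The others include Rpl27-ps3, at 411 bases there and 475 in the files, and Rps2-ps6, at 855 and 666. For these the sequence that Salmon used may differ.

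Named genes are the 12 members with most CPM, the 3 smallest p per comparison, the 5 highest and 5 lowest ratios of NC replicate 1 of batch 2 to the median of the other 19 among members with a mean of at least 10 reads (by CPM where that median is 0), the 3 highest TPM ratios to the parent, and the parents. Rpl13-ps1, Rpl36a-ps3, the Rpl35a, Rpl17 and Rpl34 copies, Gm5148, Gm10243, Rps12l1, Rpl29 and Rps26 were named after their values were seen. The members and lists were chosen with earlier results of these data known. No sequence is printed for copies on chromosome 18. One member that entered the fits and counts is not reported here by itself and is not drawn.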

Additional observations from a re-analysis of the deposited data

How the results depend on the processing

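The 15 log2 fold changes followed here were those with the 3 smallest p in each comparison, a choice that favours a stable sign. Of the 168 values they took under the alternatives, 154 kept their direction and their side of the threshold. A further 14 passed the threshold in the same direction, and none changed sign. Among other pseudogenes some did change sign in I3-E3-SRS without NC replicate 1. The log2 fold change went from -7.30 to 6.49 for Rpl19-ps11 and from -0.889 to 0.195 for Rps23-ps1, whereas Rpl10-ps3 stayed positive, at 0.705 and 0.196. With low counts left in, the number called was 1 in I0-E0, 3 in I0-E2, 4 in I0-E4, 4 in I2-E2 and 19 in I3-E3-SRS, where 0.435%, 0.182%, 0.680%, 0.633% and 0.960% of all genes were called, and the cause was not tested. With each library left out in turn the number called was 0 to 0 in each comparison of batch 1 and 0 to 36 in I3-E3-SRS, with 36 only without NC replicate 2. Pairing by replicate number was not seen in batch 1. There 3 of 30 same-numbered pairs (range -0.21 to 0.19) and 6 of 60 other pairs correlated by over 0.1 in their deviations from the group mean. Batch 2 cannot show pairing this way, because the deviations of its 2 NC libraries mirror each other. With the replicate block 4 pseudogenes were called in I3-E3-SRS, Rpsa-ps10, Rps18-ps3, Rps6-ps4 and Rpl17-ps10, and 0 in batch 1. Limma-voom, DESeq2, library totals without TMM and the fit of 2 groups alone called 0 in every comparison in which they were run. A minimum of 10 reads in a library left 52 members, and the limits of more than 0 reads and of a pseudogene biotype gave 247 and 226. As a share of TPM the members held 3.25% of NC replicate 1 of batch 2, which was 1.26 times the median of the other 19 libraries, against 1.63 times in reads. Without the member with the most reads the share was 0.836%, or 1.71 times. The values of copies with no sequence of their own rest on how shared reads were divided, and how well this was estimated was not tested.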

Other observations

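The 194 pseudogenes with a mean under 10 reads were spread thinly. After thinning to 5432621 gene reads per library, the number of all 232 pseudogenes with a read was expected to be 74.6 to 101 in the other 19 libraries. NC replicate 1 of batch 2, the smallest library, was not thinned and had 100 pseudogenes with at least 1 read. Estimates under 1 read add to the expected numbers but not to the 100, so the measures differ slightly. The highest expected number, 101, belonged to I0-E0 replicate 3, which had 116 pseudogenes with a read before thinning and 6 found in no other library. It also had reads on 19940 genes, against 15523 to 17173 in the other libraries.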
